A study of Homo sapiens with 8 samples.

Results

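Fatty acid beta-oxidation in mitochondria and peroxisomes was followed through 49 listed genes, chosen by their known roles and found by Ensembl identifier among the 57500 genes of the counts table. HEK293T, a human embryonic kidney cell line carrying a viral large T antigen, was treated with 100 µM DZNep for 48 h or with vehicle (Control), and 4 libraries of total RNA were sequenced per group. DZNep is an adenosine analog that inhibits S-adenosylhomocysteine hydrolase, the enzyme that clears the product of methylation reactions. Both groups are the same line, grown in DMEM with serum according to the labels while the methods name RPMI, and the labels name no difference between them other than the treatment. The libraries of a group are described as biological replicates, without a statement of how the cultures were separated, so p-values measure the spread between these libraries. Library totals ranged from 25043058 to 44902779 counts. The deposited table of normalized counts holds 48 of the 49 members, all but ACOX2, and all 49 were among the 19171 genes tested.

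Beta-oxidation shortens an acyl-CoA by repeated rounds of dehydrogenation, hydration, a second dehydrogenation and thiolysis. Long-chain acyl groups enter mitochondria on carnitine, and the electrons of the first dehydrogenation reach the respiratory chain through the electron transfer flavoprotein. Peroxisomes run a parallel set of enzymes on very long-chain, branched and bile acid precursors, and pass shortened acyl groups on as carnitine esters. The kidney relies on this pathway for much of its ATP, and PPARA, a fatty acid-activated nuclear receptor, is a known transcriptional regulator of many of its genes. Of the members, 26 act in mitochondria, 11 in peroxisomes, and 12 are shared between compartments or act elsewhere.

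After DZNep treatment 14 of the 49 members were lower and 1, AMACR, was higher, where a call needed an adjusted p under 0.05 and a log2 fold change beyond 1 in size. Among all genes tested, 13.5% were lower and 10.6% were higher by the same rule. The lower members lay at separate steps of the route, with CPT2 at import, HADH, ECI1 and DECR1 within the spiral, and ETFB at electron transfer. ACSF3, the only lower acyl-CoA synthetase, activates malonate and methylmalonate. By adjusted p alone, 21 members were lower and 3 were higher, beside 21.8% and 19.1% of all genes, and 25 members did not pass. With 1 library left out these counts ran from 17 to 22 lower and from 1 to 3 higher, with 1 higher, AMACR, without Control replicate 1 or DZNep replicate 1. The median log2 fold change was -0.28 over the members and -0.03 over all genes tested. All DZNep libraries were below all Control libraries for 19 members and above them for 3, beside 19.4% and 19.5% of all genes. With the replicate number as a block, 13 members were lower and 1 was higher, beside 14.3% and 11.7% of all genes. By adjusted p alone the block gave 23 lower and 5 higher, beside 30.2% and 28.8%. In bulk RNA, a lower transcript level per cell and fewer cells carrying the transcript cannot be told apart.

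**Figure D1:**
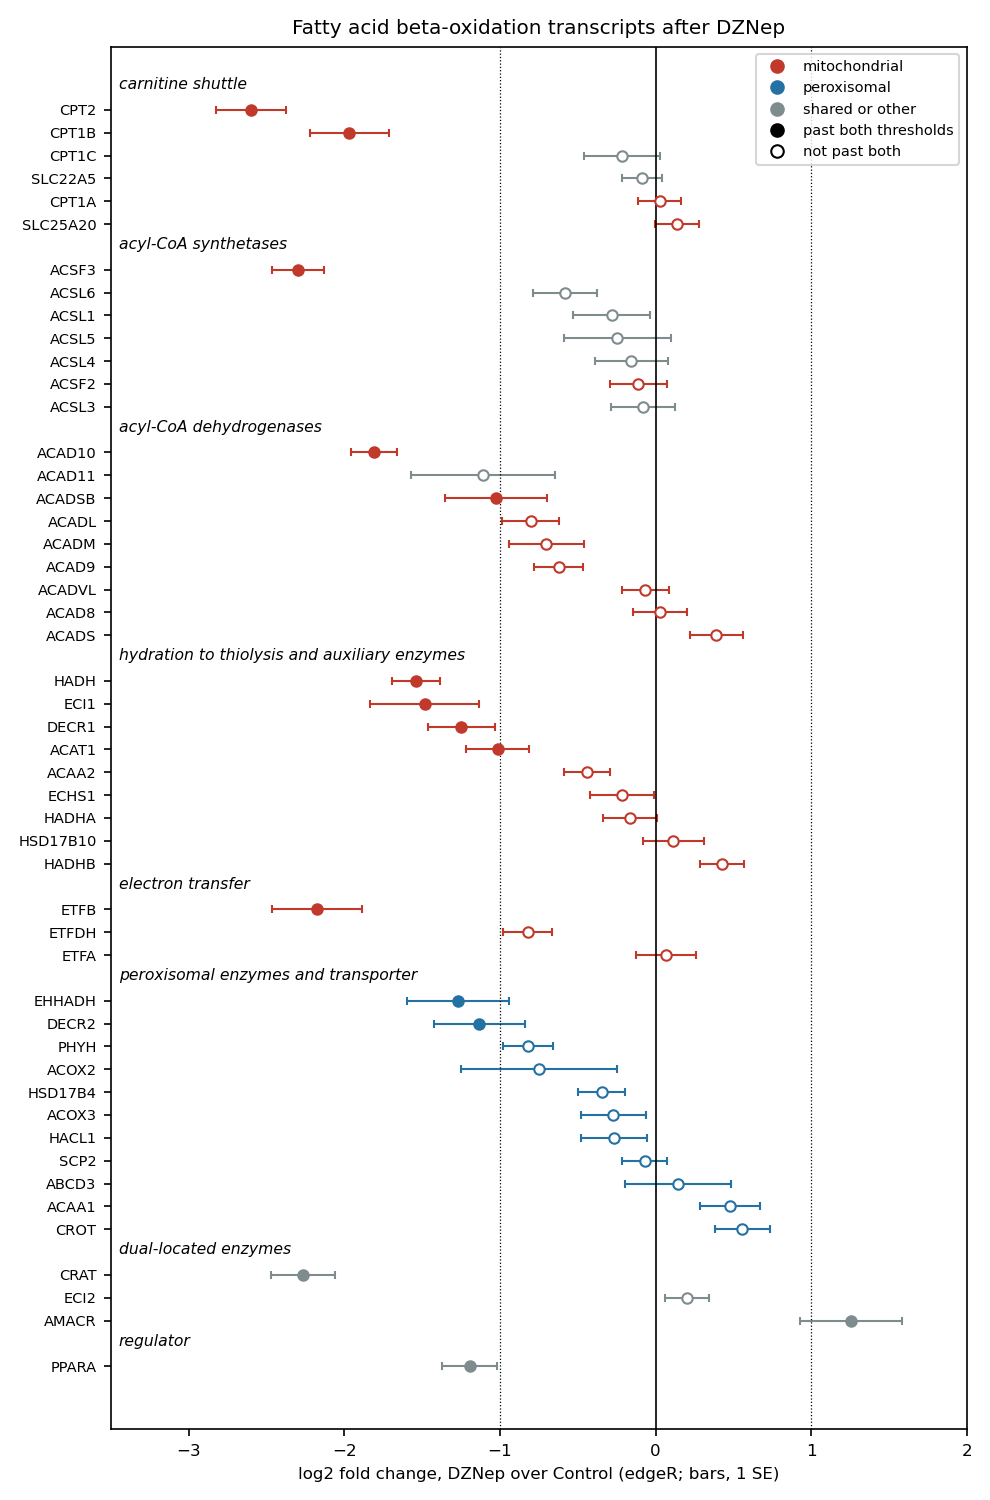
Log2 fold change of each of the 49 members, DZNep over Control (x axis), in groups by step (y axis), with bars of 1 SE and dotted lines at the fold threshold. Filled points passed both thresholds, and they run from CPT2 at -2.60 to AMACR at 1.25, with open points in every step except the regulator PPARA.

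Of the 6 carnitine shuttle genes 2 were lower, CPT2 and CPT1B. CPT2, the carnitine palmitoyltransferase that rebuilds acyl-CoA in the matrix, stood at a normalized count of 1424, 2234, 1723 and 1126 in Control replicates 1 to 4 and 288, 270, 309 and 223 in DZNep replicates 1 to 4. The highest DZNep value was far under the lowest Control value. CPT2 was 5.97-fold lower, at a log2 fold change of -2.60 ± 0.23 (SE, n = 4 libraries a group), the largest decrease among the members, and its adjusted p was 2.67e-05 by edgeR. An exact permutation test over the libraries gave p = 0.0286, two-sided, the smallest that 4 against 4 libraries allow. CPT1A, the outer membrane enzyme and the rate-controlling step of import, held 960, 1122, 1010 and 1095 in Control and 947, 1138, 1232 and 1034 in DZNep. Those groups overlapped throughout (log2 fold change 0.03 ± 0.14, adjusted p = 0.891). The ratio of CPT1A to CPT2 counts within a library was 0.684 ± 0.205 (SD, n = 4) in Control and 4.03 ± 0.569 in DZNep, without overlap. This and the other ratios between members were chosen after the values were seen and are given without a test.

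The outer membrane enzyme has a liver form, CPT1A, and a muscle form, CPT1B. CPT1B held 197, 118, 149 and 227 in Control and 41.7, 38.7, 47.5 and 51.8 in DZNep, again without overlap. It was 3.84-fold lower (log2 fold change -1.97 ± 0.25, adjusted p = 0.000234). CPT1B shares 2722 of its 4102 exonic bases with the read-through gene CHKB-CPT1B, so its count is uncertain, and that gene held 46 to 78 raw counts in Control and 17 to 29 in DZNep. CPT1C, a brain-type member of the endoplasmic reticulum, was at -0.22 ± 0.24 (adjusted p = 0.512). Per kilobase of transcript, CPT1B made up 15.7% ± 2.99 of the summed CPT1 family level in Control and 4.81% ± 0.228 in DZNep (SD, n = 4). CPT1A went from 48.5% ± 6.87 to 58.2% ± 6.97 and CPT1C from 35.7% ± 4.77 to 37.0% ± 6.74, both with overlapping libraries. The carnitine-acylcarnitine translocase SLC25A20 (log2 fold change 0.14 ± 0.14, adjusted p = 0.464) and the plasma membrane carnitine transporter SLC22A5 (-0.09 ± 0.13, adjusted p = 0.624) did not pass the test.

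RefSeq promoter windows of GRCh38.p14, from 250 bases before to 50 bases after a gene's start, were matched for 40 of the 49 members and 9 of the 14 lower ones. The letters of 10 motifs were searched on both strands, and the ETS-type motif is shown in sequence because of its counts, which were seen first. Its letters, CCGGAAG, were found for 5 of the 9 lower members (CPT2, ACAD10, ECI1, ETFB and PPARA) and for 2 of the 31 others (SLC25A20 and ACADL). Of all 27305 genes with such windows, 12.2% held these letters. The GC box letters GGGCGG were found for 9 of the 9 lower members, 24 of the 31 others and 48.3% of all genes. Members' windows were also richer in G and C. The window highest in GC of each gene had a median of 71.7% for the 9, 67.7% for the 31 and 59.7% for all genes. The part of this composition in the motif counts was not tested. CCAAT was found for 6 of the 9, 8 of the 31 and 39.7%, the YY1 letters AAGATGGC for 2, 1 and 3.52%, and the NRF1 motif for 1, 0 and 1.52%. TATAAA, the E box CACGTG and the cyclic AMP response element TGACGTCA were each found for 0 of the 9 and 2 of the 31, beside 14.0%, 8.77% and 2.25% of all genes. TCAAGGTCA, the letters of an oestrogen-related receptor site, was found in no member's window, beside 0.432% of all genes. DR1, the direct repeat read by PPARA dimers with 1 base between 2 copies of AGGTCA, was also absent, beside 0.0293%. Letters this rare over all genes are seldom met among 40 members, so their absence here says little. The 250 bases before the start are shown for 3 lower members that hold the ETS letters and for SLC25A20, a member of the same shuttle whose transcript did not pass the test. They are written 5′ to 3′ on the gene's strand, with ETS letters of either strand in capitals.
CPT2, chr1:53196574-53196823, plus strand: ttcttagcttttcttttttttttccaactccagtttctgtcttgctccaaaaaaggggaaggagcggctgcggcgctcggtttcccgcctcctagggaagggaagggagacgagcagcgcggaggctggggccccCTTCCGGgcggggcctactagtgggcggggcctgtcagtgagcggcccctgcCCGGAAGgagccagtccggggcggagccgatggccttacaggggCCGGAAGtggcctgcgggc
ETFB, chr19:51366389-51366638, minus strand: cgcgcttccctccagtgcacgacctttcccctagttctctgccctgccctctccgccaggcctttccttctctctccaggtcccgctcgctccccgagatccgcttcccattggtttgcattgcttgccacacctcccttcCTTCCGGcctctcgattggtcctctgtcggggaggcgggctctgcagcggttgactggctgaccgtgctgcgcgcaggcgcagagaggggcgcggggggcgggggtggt
ECI1, chr16:2251588-2251837, minus strand: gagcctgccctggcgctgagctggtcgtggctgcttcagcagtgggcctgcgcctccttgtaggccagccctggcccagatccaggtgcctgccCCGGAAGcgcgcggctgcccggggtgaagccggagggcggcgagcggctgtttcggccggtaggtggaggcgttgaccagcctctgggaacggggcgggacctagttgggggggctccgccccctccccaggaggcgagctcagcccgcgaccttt
SLC25A20, chr3:48898883-48899132, minus strand: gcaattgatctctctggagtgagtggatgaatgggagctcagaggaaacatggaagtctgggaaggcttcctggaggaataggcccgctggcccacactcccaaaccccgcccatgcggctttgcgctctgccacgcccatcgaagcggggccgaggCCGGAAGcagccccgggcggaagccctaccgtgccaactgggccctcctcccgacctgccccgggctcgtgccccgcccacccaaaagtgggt
The CPT2 stretch holds 3 matches, which begin 115, 63 and 19 bases before the start, and each of the others holds 1. A match of letters describes the sequence and does not show a bound site.

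Of the 7 acyl-CoA synthetases, which attach coenzyme A to a free fatty acid, 1 was lower. ACSF3, a mitochondrial enzyme that activates malonate and methylmalonate, held 828, 784, 886 and 821 in Control and 142, 192, 147 and 207 in DZNep. These groups were far apart, and the Control libraries had a mean of 830 ± 42.2 (SD). ACSF3 was 4.82-fold lower (log2 fold change -2.30 ± 0.17, adjusted p = 1.18e-05). The long-chain synthetases ACSL1, ACSL3, ACSL4 and ACSL5 had log2 fold changes from -0.28 (ACSL1) to -0.08 (ACSL3) and adjusted p-values from 0.390 to 0.782. ACSL6, the least expressed of the family per kilobase after ACSL5, was lower by adjusted p alone (-0.58 ± 0.20, adjusted p = 0.0424). That call was lost, at 0.0514 to 0.132, without Control replicate 1, 2 or 3 or DZNep replicate 1, 2 or 4. The medium-chain synthetase ACSF2 was at -0.11 ± 0.18 (adjusted p = 0.662).

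The acyl-CoA dehydrogenases catalyse the first step of each round and differ in the chain length they accept. ACAD10, a family member of less defined substrate, held 620, 615, 716 and 710 in Control and 214, 196, 189 and 173 in DZNep. It was 3.45-fold lower without overlap (log2 fold change -1.81 ± 0.15, adjusted p = 2.01e-05). ACADSB, which acts on short branched chains from isoleucine, held 765, 2002, 1401 and 714 in Control and 530, 772, 688 and 454 in DZNep. Its groups overlapped, since DZNep replicate 2 lay above Control replicates 1 and 4. At -1.03 ± 0.33 (adjusted p = 0.0296) it lay just past both thresholds. With the replicate block ACADSB was at -0.93 with an adjusted p of 6.36e-05, and without Control replicate 2 it was at -0.69 with an adjusted p of 0.0678. Without Control replicate 3 or DZNep replicate 1, 3 or 4 its adjusted p lay between 0.0586 and 0.0915. ACADM, the medium-chain enzyme, held 3046, 4828, 4616 and 2172 in Control and 2299, 2555, 2409 and 1918 in DZNep. The overlap came from Control replicate 4, and ACADM passed by adjusted p alone (-0.70 ± 0.24, adjusted p = 0.0408). Without Control replicate 2 or 3 or any 1 of the DZNep libraries its adjusted p was 0.0689 to 0.109. The exact permutation test gave p = 0.114 for ACADM.

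The long-chain dehydrogenase ACADL (-0.80 ± 0.19, adjusted p = 0.00623) and ACAD9, which also serves complex I assembly (-0.62 ± 0.16, adjusted p = 0.0105), were lower by adjusted p alone, without overlap of the groups. Scaled by library sizes alone, ACAD9 had an adjusted p of 0.0554. ACADVL, the very long-chain enzyme of the inner membrane, was at -0.07 ± 0.15 (adjusted p = 0.755), and the isobutyryl-CoA dehydrogenase ACAD8 was at 0.03 ± 0.17 (adjusted p = 0.910). The short-chain enzyme ACADS was at 0.39 ± 0.17 (adjusted p = 0.0921), and it passed by adjusted p with the replicate block (0.38, adjusted p = 0.0170). Among the straight-chain enzymes ACADVL, ACADL, ACADM and ACADS, the fold changes did not follow chain length. ACAD11, found in peroxisomes and mitochondria, held 176, 311, 366 and 84.9 in Control and 106, 151, 137 and 46.1 in DZNep. Its log2 fold change of -1.11 ± 0.46 missed the adjusted p threshold at 0.0801 and passed it with the replicate block (-1.06, adjusted p = 0.000153) and without Control replicate 4 (-1.40, adjusted p = 0.0152). Each DZNep library lay below the Control library of its number. ACAD11 shares 3900 of its 5033 exonic bases with other genes, so its count is uncertain.

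After dehydrogenation, the trifunctional protein of the inner membrane handles long chains and separate matrix enzymes handle short ones. The trifunctional alpha subunit HADHA, which carries the hydratase and hydroxyacyl dehydrogenase, held 9960, 13620, 12790 and 8621 in Control and 11120, 10150, 10030 and 9570 in DZNep. The DZNep values sat inside the Control range, at -0.17 ± 0.17 with an adjusted p of 0.480. The beta subunit HADHB, the thiolase of the same complex, held 3553, 4262, 3957 and 3198 in Control and 5357, 5093, 4658 and 5409 in DZNep. HADHB was higher in every DZNep library than in any Control library, by 1.37-fold (0.43 ± 0.14, adjusted p = 0.0329), which passed by adjusted p alone. That call was lost, at 0.0585 to 0.0907, without Control replicate 1, 3 or 4 or DZNep replicate 1, 2 or 4. The ratio of HADHB to HADHA counts was 0.338 ± 0.0310 in Control and 0.503 ± 0.0440 in DZNep (SD, n = 4), without overlap.

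HADHA and HADHB lie head to head on chromosome 2, and their RefSeq starts are 307 bases apart. The stretch before the HADHB start, which is shown because it lies between both starts, holds 2 GC boxes on the other strand, in capitals.
HADHB, chr2:26244689-26244938, plus strand: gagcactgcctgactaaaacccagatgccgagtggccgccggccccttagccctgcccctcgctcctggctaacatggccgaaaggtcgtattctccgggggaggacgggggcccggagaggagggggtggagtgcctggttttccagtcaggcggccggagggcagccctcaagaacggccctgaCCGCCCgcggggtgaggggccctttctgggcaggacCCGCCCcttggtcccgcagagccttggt

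The short-chain hydroxyacyl-CoA dehydrogenase HADH held 3469, 3711, 4059 and 3451 in Control and 1338, 1001, 1337 and 1474 in DZNep. HADH was 2.85-fold lower without overlap (-1.54 ± 0.16, adjusted p = 6.23e-05). The short-chain hydratase ECHS1, which acts just before it, was at -0.22 ± 0.21 (adjusted p = 0.437). ACAT1, the acetoacetyl-CoA thiolase that ends the breakdown of short chains and of ketone bodies, held 4489, 6709, 6253 and 3499 in Control and 2698, 2700, 2581 and 2591 in DZNep. The DZNep libraries had a mean of 2642 ± 65.4 (SD) and the Control libraries 5238 ± 1503. ACAT1 was at -1.01 ± 0.20 (adjusted p = 0.00286), at the fold threshold, and at -0.97 with the replicate block (adjusted p = 4.20e-05). It fell short of the fold threshold without Control replicate 2 (-0.88) or Control replicate 3 (-0.92), and narrowly without DZNep replicate 3 or 4. The general thiolase ACAA2 was lower by adjusted p alone (-0.44 ± 0.15, adjusted p = 0.0347), a call lost at 0.0737 to 0.101 without Control replicate 2 or 3 or any 1 of the DZNep libraries. HSD17B10, a hydroxyacyl dehydrogenase that is also a subunit of mitochondrial RNase P, was at 0.11 ± 0.20 (adjusted p = 0.677).

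Unsaturated fatty acids need auxiliary enzymes that move or reduce double bonds, and ECI1 and DECR1 were lower. ECI1, the enoyl-CoA isomerase, held 10270, 4670, 6321 and 12360 in Control and 3605, 1766, 2634 and 4241 in DZNep. ECI1 was 2.75-fold lower (-1.49 ± 0.35, adjusted p = 0.00667), and in both groups replicates 1 and 4 stood above replicates 2 and 3. DECR1, the 2,4-dienoyl-CoA reductase, held 1913, 1115, 1298 and 1721 in Control and 765, 494, 596 and 736 in DZNep. It was 2.33-fold lower without overlap (-1.25 ± 0.21, adjusted p = 0.00117) and showed the same order of replicates. ECI2, the isomerase found in both compartments, was at 0.20 ± 0.14 (adjusted p = 0.273), and the ECI2 to ECI1 count ratio was 0.440 ± 0.241 in Control and 1.29 ± 0.412 in DZNep, without overlap.

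The electron transfer flavoprotein is a dimer of ETFA and ETFB, of which ETFB was lower. ETFB held 5678, 3151, 3600 and 6277 in Control and 1115, 751, 844 and 1513 in DZNep. ETFB was 4.43-fold lower (-2.18 ± 0.29, adjusted p = 0.000284), and the highest DZNep library was below the lowest Control library. ETFA held 6003, 8823, 7859 and 4930 in Control and 8155, 7395, 7113 and 6756 in DZNep. These overlapped, at 0.07 ± 0.19 with an adjusted p of 0.812. The ratio of ETFA to ETFB counts ran from 0.785 to 2.80 over the Control libraries and from 4.47 to 9.85 over the DZNep libraries. ETFDH, the oxidoreductase that passes the electrons to ubiquinone, was lower by adjusted p alone (-0.82 ± 0.16, adjusted p = 0.00247) without overlap. ETFBKMT, the methyltransferase that modifies lysines of ETFB and was named here after its values were seen, was at -0.98 ± 0.21 (adjusted p = 0.00464).

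**Figure D2:**
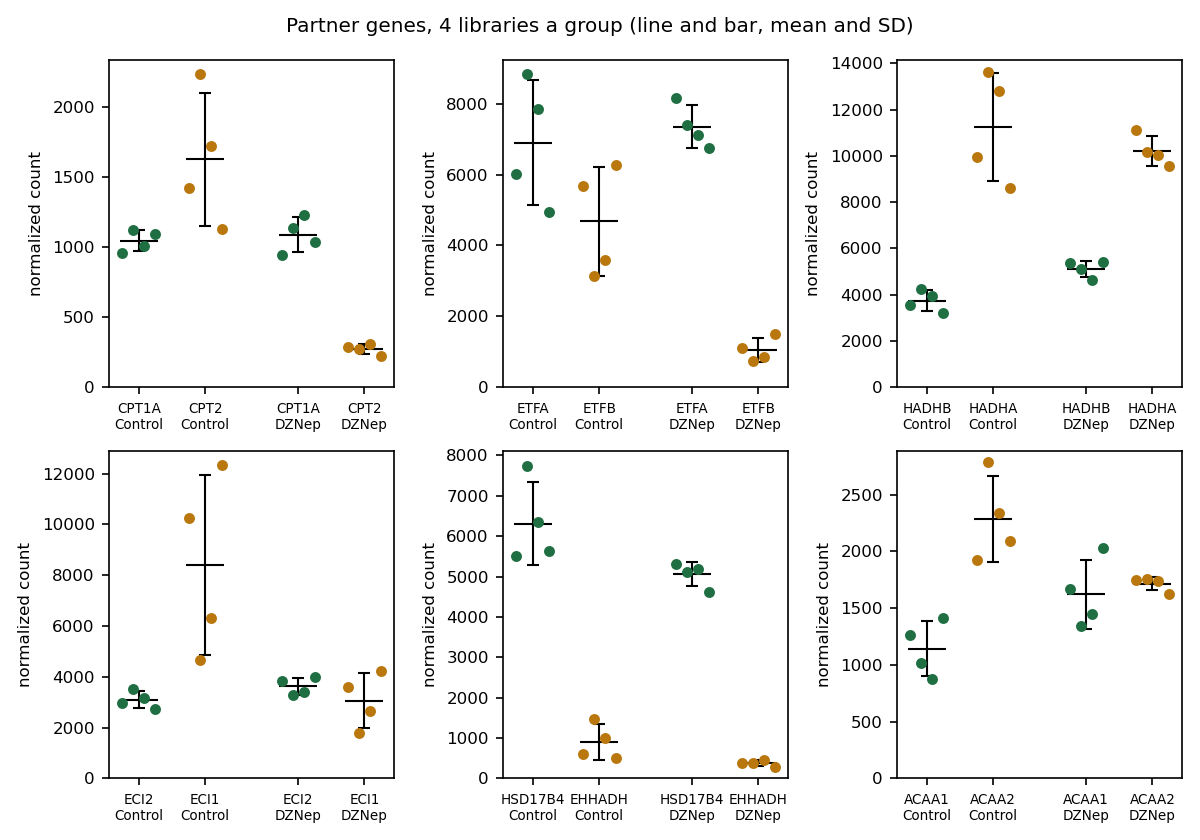
Normalized counts (y axes, from 0) of 6 pairs of members that act together or at matching steps, 1 point a library, with mean and SD of 4 libraries a group. CPT2, ETFB and ECI1 drop in DZNep beside CPT1A, ETFA and ECI2, whose groups overlap, and HADHB lies higher beside an overlapping HADHA.

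Of the 11 peroxisomal members, 2 were lower past both thresholds and 0 were higher, beside 13.5% and 10.6% of all genes tested. By adjusted p alone 3 were lower and 1 was higher, beside 21.8% and 19.1%. EHHADH, the L-bifunctional enzyme that joins hydratase and dehydrogenase, held 597, 1478, 1010 and 491 in Control and 385, 387, 465 and 274 in DZNep. It was 2.37-fold lower without overlap (-1.27 ± 0.33, adjusted p = 0.0112). HSD17B4, the D-bifunctional enzyme that does the same step on branched and very long chains, held 5508, 7735, 6355 and 5635 in Control and 5301, 5106, 5187 and 4621 in DZNep. The groups did not overlap, yet HSD17B4 missed the adjusted p threshold (-0.35 ± 0.15, adjusted p = 0.0926), which it passed with the replicate block (-0.34, adjusted p = 0.0249). DECR2, the peroxisomal dienoyl-CoA reductase, held 621, 341, 420 and 732 in Control and 248, 184, 194 and 359 in DZNep. DECR2 was 2.15-fold lower (-1.13 ± 0.29, adjusted p = 0.0106), although DZNep replicate 4 reached above Control replicate 2. EHHADH was at -0.92 without Control replicate 2 (adjusted p = 0.0201), and DECR2 was at -0.94 without Control replicate 4 (adjusted p = 0.0231). Each still passed by adjusted p but fell short of the fold threshold, which leaves a count of 1 in either case. With the replicate block both thresholds were passed by EHHADH (-1.17, adjusted p = 5.52e-05) and by DECR2 (-1.12, adjusted p = 7.87e-06).

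ACAA1, the peroxisomal thiolase, held 1267, 1018, 874 and 1416 in Control and 1666, 1347, 1448 and 2033 in DZNep. It missed the threshold (0.48 ± 0.19, adjusted p = 0.0731) with slightly overlapping groups, and it passed with the replicate block (0.48, adjusted p = 0.00227). The ratio of ACAA1 to the mitochondrial thiolase ACAA2 was 0.519 ± 0.173 in Control and 0.951 ± 0.212 in DZNep, without overlap. CROT, the carnitine octanoyltransferase that prepares shortened chains for export, was higher by adjusted p alone (0.56 ± 0.18, adjusted p = 0.0287), with 218 to 348 in Control and 378 to 473 in DZNep. The call was lost, at 0.0604 to 0.0765, without Control replicate 1 or 4 or DZNep replicate 1, 2 or 3. PHYH, which starts the alpha-oxidation of phytanic acid, was lower by adjusted p alone (-0.82 ± 0.16, adjusted p = 0.00249), while HACL1, a later enzyme of that route, was at -0.27 ± 0.21 (adjusted p = 0.350). The half-transporter ABCD3 (0.14 ± 0.34), the thiolase and sterol carrier SCP2 (-0.07 ± 0.14) and the branched-chain oxidase ACOX3 (-0.27 ± 0.21) had adjusted p-values from 0.330 to 0.766. ACOX2, the oxidase of bile acid precursors, had only 3 to 18 raw counts a library, and its -0.75 ± 0.50 (adjusted p = 0.262) is not resolved at this depth.

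Side by side, 10 of the 26 mitochondrial members (38.5%) and 2 of the 11 peroxisomal members (18.2%) were lower past both thresholds, beside the 13.5% of all genes tested. By adjusted p alone these were 15 (57.7%) and 3 (27.3%), with 1 higher in each compartment. Of all genes tested, 21.8% were lower and 19.1% were higher by that rule. The median log2 fold change was -0.66 over mitochondrial and -0.27 over peroxisomal members. The latter moved to -0.14 without Control replicate 2, to -0.16 without DZNep replicate 4 and to -0.40 without Control replicate 1 or 4, while the mitochondrial median stayed between -0.76 and -0.55. With ECI2, AMACR, CRAT and ACAD11 counted as peroxisomal, 3 of 15 were lower and the median stayed at -0.27. The difference between compartments was not tested, because members are not replicates. Summed per kilobase over the mitochondrial members, the normalized level was 45800, 42630, 42360 and 46230 in Control and 33520, 28460, 28520 and 35370 in DZNep, so the groups did not overlap. The same sum over peroxisomal members was 6966, 8783, 7659 and 7021 in Control and 7145, 6725, 6744 and 6551 in DZNep, with overlap. Abundant members weigh most in such sums. In the mitochondrial sum ETFB went from a mean of 5363 in Control to 1210 in DZNep and ECI1 from 5577 to 2032, while HADHB rose from 1874 to 2569. By adjusted p, 10 of the 26 mitochondrial members did not pass.

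**Figure D3:**
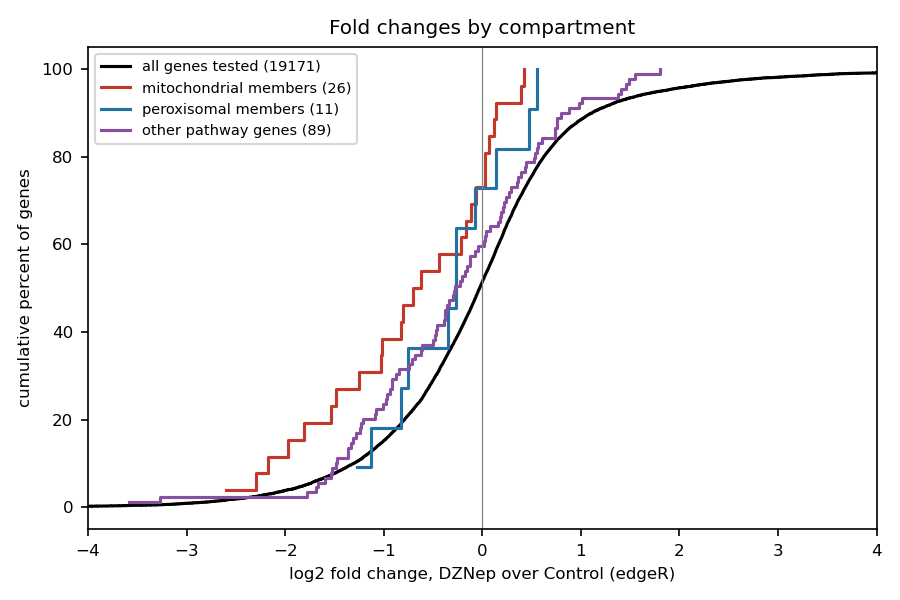
Cumulative percent of genes (y axis) below each log2 fold change, DZNep over Control (x axis), for the 26 mitochondrial members, 11 peroxisomal members, 89 other pathway genes and all 19171 genes tested. The mitochondrial curve lies furthest left, with its median at -0.66 against -0.27 for peroxisomal members and -0.03 for all genes, and a difference between curves was not tested.

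Among the enzymes shared by both compartments, CRAT and AMACR moved in opposite directions. CRAT, the carnitine acetyltransferase that buffers acetyl-CoA, held 1355, 1354, 1720 and 1381 in Control and 332, 206, 386 and 305 in DZNep. CRAT was 4.73-fold lower without overlap (-2.27 ± 0.21, adjusted p = 3.60e-05). AMACR, the racemase that readies branched chains and bile acid intermediates for oxidation, held 186, 377, 264 and 113 in Control and 611, 681, 592 and 405 in DZNep. AMACR was 2.43-fold higher (1.25 ± 0.33, adjusted p = 0.0117), and every DZNep library stood above every Control library. AMACR shares 2660 of its 4335 exonic bases with the read-through gene C1QTNF3-AMACR, so its count is uncertain. That gene had 0 counts in every library, which does not show how reads in the shared bases were assigned.

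PPARA held 937, 1400, 1261 and 968 in Control and 461, 507, 610 and 453 in DZNep. The receptor's transcript was 2.25-fold lower without overlap (-1.20 ± 0.18, adjusted p = 0.000537). Of its 2 RefSeq windows on chromosome 22, 1 holds the ETS letters and both hold the GC box letters named above.

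Levels between genes were compared as normalized counts per kilobase of the canonical transcript. In Control the order was led by ECHS1 (5961 ± 1098, SD, n = 4), ECI1 (5577 ± 2343), ETFB (5363 ± 1758) and HSD17B10 (5009 ± 887), neighbours that did not differ beyond their spread. In DZNep it was led by HSD17B10 (5528 ± 1234) and ECHS1 (5233 ± 1266), followed by HADHA (3472 ± 221) and ETFA (3213 ± 260). ECI1 went from rank 2 to rank 7 of 49, ETFB from 3 to 11, HADH from 10 to 17, CRAT from 25 to 37 and CPT2 from 23 to 39. AMACR went from rank 46 to 33. Of the peroxisomal members HSD17B4 had the highest level in both groups, with 2400 ± 389 in Control and 1923 ± 114 in DZNep. At the bottom were ACSL5 (9.98 ± 2.42 in Control) and ACOX2 (4.66 ± 1.78), both among enzymes best known from liver and intestine.

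**Figure D4:**
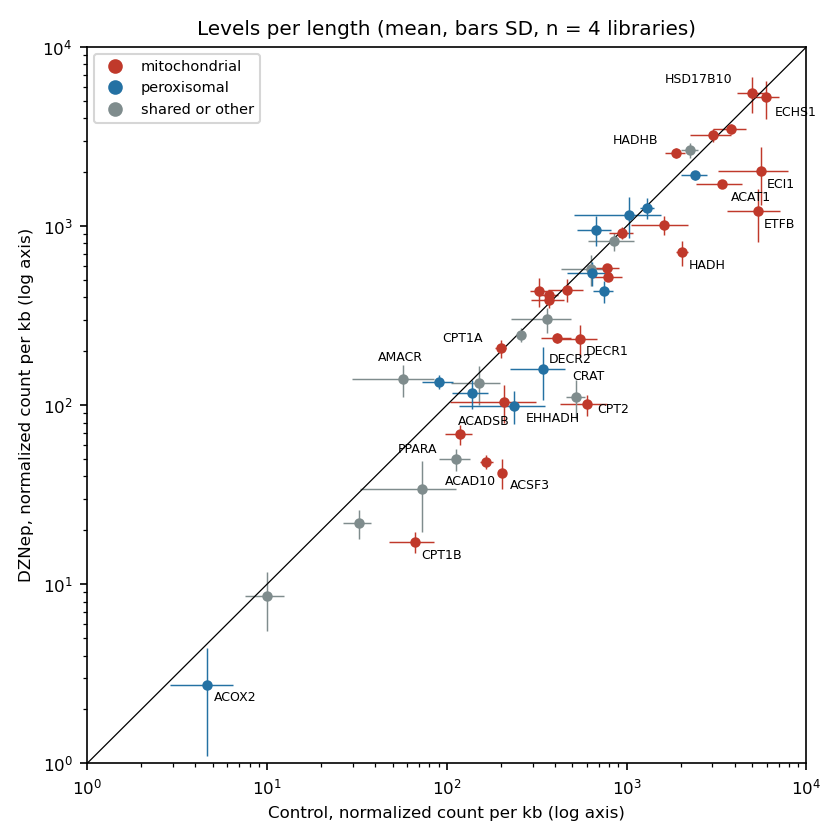
Mean level of each member in Control (x axis) and DZNep (y axis), as normalized counts per kilobase on log axes, with bars of 1 SD over 4 libraries and the line of equal levels. CPT2, ETFB, ECI1 and CRAT lie below the line, AMACR lies above it, and ECHS1 and HSD17B10 sit near it at the top.

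Libraries of a group differed in a repeated order. Control replicates 1 and 4 both stood above replicates 2 and 3 for 12 members, and both stood below them for 26. In DZNep the same split was above for 14 members and below for 12. For 8 members, ETFB, ECI1, DECR1 and DECR2 among them, replicates 1 and 4 were above in both groups, for 10, ACADSB, EHHADH, ACADM and PPARA among them, they were below in both, and for 4 the groups went opposite ways. The ratio of the highest to the lowest library had a median over the members of 1.60 in Control and 1.39 in DZNep, and 34 members spread more widely in Control. The share of all genes tested with replicates 1 and 4 split from 2 and 3 was not counted, so these counts describe the members only. Deviations from the group means were correlated over all genes tested. DZNep replicate 4 correlated at 0.53 and 0.67 with Control replicates 1 and 4, and at -0.68 and -0.57 with 2 and 3. DZNep replicate 1 correlated at -0.05 to 0.14 with the Control libraries. A cause of the repeated order was not tested.

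**Figure D5:**
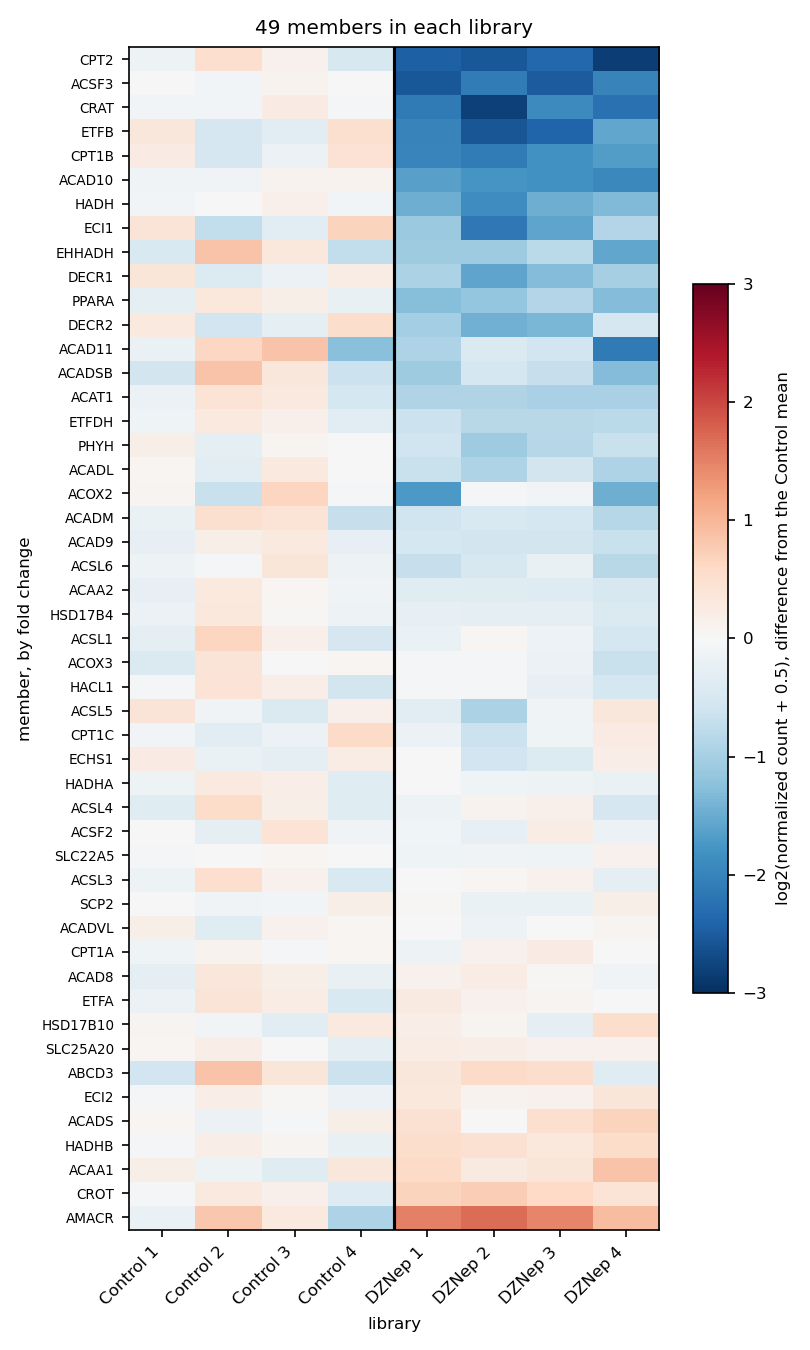
Difference of each library from the Control mean, in log2(normalized count + 0.5), for the 49 members (rows, by fold change) in the 8 libraries (columns), with blue lower and red higher. The top rows from CPT2 to DECR1 are blue in all 4 DZNep libraries, AMACR is red in all 4, and Control replicates 1 and 4 differ from 2 and 3 in many rows.

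Of 93 other genes of fatty acid metabolism and its surroundings, 89 were tested, 20 (22.5%) were lower and 7 were higher past both thresholds, beside 13.5% and 10.6% of all genes tested. The counts of its smaller lists are descriptions. Upstream of activation, the fatty acid transporter CD36 was 3.52-fold higher (26.8 ± 6.77 in Control, 94.3 ± 21.4 in DZNep, SD, n = 4, adjusted p = 0.000749), and the binding protein FABP3 was 2.73-fold higher (adjusted p = 0.000720). These were the 2 higher genes among 9 for uptake and binding, of which 0 were lower. Of 4 lipolysis genes 2 were higher, the lipid droplet coat PLIN2 (2.80-fold, from 1238 ± 262 to 3472 ± 198, adjusted p = 0.000146) and the hormone-sensitive lipase LIPE (2.04-fold, adjusted p = 0.00324). Of 7 acyl-CoA thioesterases tested 2 were lower, ACOT13 (3.16-fold, adjusted p = 0.000821) and ACOT7 (2.32-fold, adjusted p = 0.000454). Of 3 genes that set malonyl-CoA, the inhibitor of CPT1 enzymes, the decarboxylase MLYCD was 2.39-fold lower (adjusted p = 0.00163).

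Beyond the thiolase step, 3 of 3 tested ketone body genes were lower, led by BDH1, the 3-hydroxybutyrate dehydrogenase (2.85-fold, adjusted p = 0.000766). Of 17 genes for propionate and branched-chain acyl-CoA 6 were lower and 0 were higher, with BCKDHB, a subunit of the branched-chain ketoacid dehydrogenase, 3.38-fold lower (adjusted p = 0.000436) and ALDH6A1, the methylmalonate semialdehyde dehydrogenase, 2.53-fold lower (adjusted p = 0.000239). Of 16 peroxins, which build peroxisomes, 3 were lower and 0 were higher, with PEX10 3.10-fold lower (adjusted p = 6.32e-05) and PEX11G 2.83-fold lower (adjusted p = 0.00573). Among 13 further peroxisomal proteins 4 were lower and 2 were higher. TYSND1, the protease that processes peroxisomal beta-oxidation enzymes, held 1158 ± 67.6 in Control and 98.1 ± 7.63 in DZNep (11.8-fold lower, adjusted p = 1.10e-06). ABCD2, a peroxisomal half-transporter named after its values were seen, was 2.88-fold higher (91.6 ± 43.4 to 263 ± 77.4, adjusted p = 0.00774). Of 8 other regulators, the PPARA partner RXRG was 2.98-fold higher (adjusted p = 0.000225) and the oestrogen-related receptor ESRRA was 2.09-fold lower (adjusted p = 0.000281). Among 4 genes of carnitine synthesis and 5 of flavin supply and ETF modification, 0 passed both thresholds in either direction, and by adjusted p alone 0 and 3 were lower.

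The line's identity was checked by markers. The 7 genes chosen for HEK293-type progenitors summed to 29660 to 51800 normalized counts in Control and 36010 to 42630 in DZNep, and 1 of them, LHX1, was lower. Of 3 endothelial markers 2 were higher (sum 150 to 183 in Control, 167 to 321 in DZNep), of 3 fibroblast markers 1 was higher (2426 to 4677 and 2789 to 5322), and of 3 muscle markers 1 was higher (19.7 to 39.7 and 29.8 to 95.6). The 3 hepatocyte markers summed to 1.54 to 8.59 in Control and 16.1 to 37.1 in DZNep with 0 tested, and the 4 blood markers to 40.3 to 84.8 and 75.3 to 133, with HBB at 0 throughout. The part of these markers in the results was not tested.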

How the data were processed

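RNAseq was measured in 4 Control and 4 DZNep libraries of HEK293T cells, grouped and numbered as in the labels. The submitters' processing notes list Trimmomatic 0.36 for trimming, STAR 2.5.2b for alignment on GRCh38 and featureCounts of Subread 1.5.2, which per the methods took unique reads falling in exons. The raw counts the authors deposited cover 57500 genes. A second deposited table holds a signal, counts divided by 1 size factor per library, for 19118 genes with at least 81 summed counts, and the normalized counts printed here are the counts divided by those factors, also for ACOX2, which has fewer counts. The annotation release and the strandedness of the libraries are not given in the sources used here, so overlapping and antisense genes are uncertain. Symbols and transcript lengths came from GENCODE and promoter windows from RefSeq.

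Tests used edgeR 4.0.16 in R 4.3.3, the quasi-likelihood test with TMM scaling on 19171 genes passing filterByExpr, and Benjamini-Hochberg adjustment over all of them. Calls needed an adjusted p under 0.05 and a log2 fold change beyond 1 in size. The script was tested on simulated data. Single members also had a two-sided exact permutation test on log2(normalized count + 0.5). Replicate numbers were taken to pair the libraries, since deviations from the group means correlated at 0.14, 0.49, 0.43 and 0.67 between libraries of the same number, each over the limit of 0.1. Libraries of different numbers ran from -0.68 to 0.53, and Control replicate 1 correlated more with DZNep replicate 4 (0.53) than with its own number. The main test, with its SE and calls, left this pairing out, and the replicate block was the fit that used it. Alternatives were DESeq2 1.42.0, limma 3.58.1, other scalings and filters, the replicate block, no fold threshold, leaving out each library and, added after seeing the data, counts of groups that do not overlap. Members, lists, markers and ratios were chosen with earlier results of these data known, so no p is given over a list. Values in every library are given for members past both thresholds and for CPT1A, CPT2, HADHA, ACADM, ETFB, HSD17B4, ACAA1, PPARA and AMACR, with partner genes added after their values were seen. Of other pathway genes, up to 2 per list with the largest change past both thresholds are named. The results of some genes are not reported here. Precision is limited by 4 libraries a group.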

Additional observations from a re-analysis of the deposited data

Results flagged for a closer look

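In 5 of the 98 groups of 4 libraries formed by the members, 1 library lay far from the other 3, with a gap to its nearest neighbour, as a share of the group's range, over Dixon's critical value. Chance flags about 1 in 20 such groups. For SLC22A5, DZNep replicate 4 had a normalized count of 924.7, above the other DZNep libraries at 768.2 to 788.5. For ACAD9, DZNep replicate 4 was low at 1196, below the others at 1289 to 1301. For ACAA2, DZNep replicate 4 was low at 1629, below the others at 1735 to 1753. For ETFDH, DZNep replicate 1 was high at 812.6, above the others at 707.4 to 721.1. For CRAT, Control replicate 3 was high at 1720, above the others at 1354 to 1381. Without these libraries ACAD9, ACAA2, ETFDH and CRAT had log2 fold changes of the same sign, and over all libraries left out in turn they ranged from -0.71 to -0.52, from -0.53 to -0.33, from -0.93 to -0.72 and from -2.39 to -2.11. Without DZNep replicate 4 the adjusted p of ACAA2 was 0.0737, past the threshold that it met at 0.0347 with all libraries. DZNep replicate 4 accounts for 3 of the 5 values.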

How the results depend on the processing

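Over all alternatives, 740 of 783 values of single members kept their direction and their call by both thresholds together, 23 no longer passed, 3 newly passed and 17 changed sign. By adjusted p alone 48 values lost the call, for ACAA2, ACADM, ACSL6, HADHB, CROT, ACADSB and ACAD9, and 11 gained it, for ACAA1, ACADS, ACAD11 and HSD17B4. The count higher by adjusted p alone was 1 with a filter of 1 read and 5 with library sizes alone. The replicate block changed the calls of ACADSB (-0.93), ACAT1 (-0.97) and ACAD11 (-1.06) and no other call of a member past both thresholds. ACADSB and ACAT1 also failed the fold threshold with at least 10 reads in every library (-0.99 and -0.98), with library sizes alone (-0.97 and -0.96), and with limma (-0.90 and -0.94), and ACAT1 did so with DESeq2 and with median-ratio size factors (both -0.99). ACAD11 passed without a filter beyond 1 read (-1.12) and without Control replicate 4 (-1.40). Leaving out a library gave 11 to 14 members lower, 1 higher, 8 to 10 mitochondrial and 1 to 2 peroxisomal members lower, with 1 for the latter without Control replicate 2 or 4. With no fold threshold 3 members were higher, as by groups that do not overlap, and of the other pathway genes 33 were lower and 19 higher. The median log2 fold change ranged from -0.76 to -0.55 over mitochondrial and from -0.40 to -0.14 over peroxisomal members. Signs changed only for members that did not pass the test. With library sizes alone ACADVL was at 0.0129 and SCP2 at 0.0088. With 1 library left out, the ranges crossed 0 for CPT1A (-0.0314 to 0.108), CPT1C (-0.365 to 0.0083), ACSL3 (-0.222 to 0.104), ACSL4 (-0.282 to 0.048), ACSF2 (-0.211 to 0.0436), ACAD8 (-0.0703 to 0.146), HSD17B10 (-0.021 to 0.239), ETFA (-0.0733 to 0.200) and ABCD3 (-0.0537 to 0.484). The cause of these shifts was not tested. No scaling moved the median of all genes by over 0.1.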
